A study of Mus musculus with 14 samples.

Results

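The expression of 40 genes of the cell cycle and of DNA replication was examined in newborn mouse cortex, out of 51626 gene symbols with values in the deposited tables. The members were listed by symbol for their known functions and were split by role into 22 genes of mitosis, 13 genes of DNA replication and 5 regulators of the step from G1 into S phase. Each gene's value was the sum of its transcripts in FPKM, a fragment count scaled to transcript length and to library size, separately within each table. All 40 symbols were found in each of the 3 tables.

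The study paired expression profiling of an Auts2 mutant with sequencing of RNA bound by the AUTS2 protein, all at postnatal day 0.5. Frontal (rostral) cortex was profiled as polyadenylated RNA in 4 wild type C57BL6/J mice and in 4 conditional knockouts (cKO), labelled C57BL6/J EMX1-cre Auts2 cKO, in which floxed Auts2 alleles (exon 15, Flx/Flx) were combined with Emx1-cre. The Cre follows Emx1, a gene of the dorsal telencephalic lineage, so cortical cells of other origins retain Auts2, and the labels give the wild type mice neither Cre nor floxed alleles. RNA immunoprecipitation (RIP) used whole cortex of C57BL6/J neonates, 2 animals pooled per replicate; each of the 2 pools, here called trio A and trio B, was divided into a pull-down with an antibody to the C-terminal part of AUTS2, a control IgG pull-down and a 10% input.

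Dividing cells copy their DNA in S phase and separate the copies in mitosis. Genes for the copying machinery, such as the MCM helicase, are induced at the G1/S boundary by E2F transcription factors, while genes for the spindle, kinetochores and cytokinesis peak in G2 and M and often carry a cell cycle homology region (CHR) near a CCAAT box. In newborn cortex these transcripts come mainly from the remaining progenitors of the ventricular zones and from young glia, whereas neurons have left the cycle.

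The 2 kinds of promoter element are given as a description of the members. Genes of these roles are known to carry them, as stated above. A difference between the roles is therefore not independent of how the members were chosen. RefSeq promoters (build GRCm38.p6, from 250 bases before to 50 bases after the start) were found for 31 of the 40 members. The CHR, searched as TTTGAA on both strands, was in 14 of 19 mitosis promoters (73.7%, 18 genes), in 1 of 12 replication promoters (8.33%, 11 genes) and in 17.9% of all 32851 promoters. E2F sites, searched on both strands as TTTCCCGC, TTTGGCGC, TTTCGCGC or TTTGGCGG, were in 6 of 12 replication promoters (50%), in 1 of 19 mitosis promoters (5.26%) and in 2.37% of all promoters. CCAAT was held by 84.2% of mitosis, 75% of replication and 37.4% of all promoters, and the CHR together with CCAAT by 68.4% of mitosis promoters and 6.95% of all. Neither promoter found for the G1/S regulators held any of these motifs. Several genes had more than 1 promoter, and promoters of different genes are of different base composition, so these shares are given as descriptions.

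The 170 bases upstream of the start are shown for the members that passed the test in a pull-down and held their role's element in that window, written 5′ to 3′ along the gene's strand. Capitals mark TTTGAA or CCAAT in the mitosis genes, and the E2F octamers or CCAAT in the replication genes, on either strand, so that some are shown as their reverse complement. Mki67 (chr7:135716380-135716549, minus strand) encodes the proliferation marker Ki-67, Top2a (chr11:99024190-99024359, minus strand) the topoisomerase that untangles sister DNA, and Ccnb2 (chr9:70421555-70421724, minus strand) a mitotic cyclin.
Mki67: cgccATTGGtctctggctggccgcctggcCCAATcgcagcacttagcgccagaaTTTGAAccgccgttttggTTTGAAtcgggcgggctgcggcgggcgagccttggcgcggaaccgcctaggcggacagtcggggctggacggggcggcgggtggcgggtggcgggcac
Top2a: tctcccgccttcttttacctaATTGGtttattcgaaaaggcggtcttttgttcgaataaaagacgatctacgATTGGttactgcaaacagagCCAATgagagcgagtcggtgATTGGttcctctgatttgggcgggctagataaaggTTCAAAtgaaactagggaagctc
Ccnb2: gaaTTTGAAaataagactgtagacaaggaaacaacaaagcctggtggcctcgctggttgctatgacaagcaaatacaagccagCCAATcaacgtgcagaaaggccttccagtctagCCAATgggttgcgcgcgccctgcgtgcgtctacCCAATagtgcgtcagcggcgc

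The 3 replication promoters belong to subunits of the MCM helicase, which unwinds DNA ahead of the replication fork: Mcm5 (chr8:75109339-75109508, plus strand), Mcm6 (chr1:128359706-128359875, minus strand) and Mcm7 (chr5:138171884-138172053, minus strand). In Mcm5 and in the upstream site of Mcm6, 2 octamers on opposite strands overlap and are written as 1 capital run.
Mcm5: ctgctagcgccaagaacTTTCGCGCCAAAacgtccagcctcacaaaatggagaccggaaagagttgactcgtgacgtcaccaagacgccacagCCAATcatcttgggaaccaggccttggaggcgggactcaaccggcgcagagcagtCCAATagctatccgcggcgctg
Mcm6: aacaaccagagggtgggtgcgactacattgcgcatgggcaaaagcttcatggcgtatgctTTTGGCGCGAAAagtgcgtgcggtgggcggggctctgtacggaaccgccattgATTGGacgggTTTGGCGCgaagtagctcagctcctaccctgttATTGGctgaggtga
Mcm7: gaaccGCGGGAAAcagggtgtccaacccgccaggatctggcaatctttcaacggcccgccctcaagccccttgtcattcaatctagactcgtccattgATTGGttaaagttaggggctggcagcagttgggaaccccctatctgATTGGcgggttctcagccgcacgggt

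Sequencing depth is unknown because the files hold FPKM without counts. Summed FPKM per library ran from 282029 to 340979. Auts2 itself, summed over all its exons and not only the deleted one, was at 55.9 to 92.2 FPKM in the wild type libraries and at 29.8 to 35.2 FPKM in the cKO libraries (log2 fold change -1.13 ± 0.14 SE, adjusted p = 0.0237, limma). The fold change kept its size but not its call in 8 of 17 alternatives: without the filter on low values (adjusted p = 0.238), without the variance trend and robust step (0.0798), and without wild type 1 or 2 or any 1 cKO library (0.0593 to 0.123; limma). All markers of radial glia, intermediate progenitors and excitatory neurons were above 0 in at least 1 library of each table. Of the cKO libraries, cKO 1 stood apart for the cell cycle genes, as described below, and results that rest on it are given with and without it. In bulk tissue, fewer cycling cells and less RNA per cycling cell cannot be told apart.

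Within wild type frontal cortex the replication genes were the most abundant group by mean log2 level. FPKM is scaled to transcript length, but the order of genes differed in the input libraries of whole cortex, made with another kit. There Mki67 averaged 20.8 FPKM against 11.2 FPKM for Top2a, and Ccnd2 41.8 FPKM against 14.4 FPKM for Pcna. The orders given here are those of the frontal cortex libraries, and the cause of the difference was not tested. Pcna, the sliding clamp of the replication fork, was the highest member at 40.7, 37.1, 42.2 and 40.5 FPKM in wild type 1 to 4, and Mcm7 followed at 37.3, 41.2, 32.7 and 31.1 FPKM. The 4 libraries of the 2 genes overlapped. Rrm1 and Rrm2, the subunits of ribonucleotide reductase, had mean levels of 16.5 ± 0.575 and 16.4 ± 0.414 FPKM (SD, n = 4) and Mcm6 one of 14.1 ± 2.02 FPKM. The other MCM subunits lay lower, from Mcm3 at 4.97 ± 0.649 to Mcm5 at 8.21 ± 0.726 FPKM. Cdc6, which loads the helicase onto origins, was near the bottom at 0.69, 0.93, 0.684 and 0.656 FPKM.

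The mitosis genes were led by Top2a at 15.2, 12.6, 16.7 and 16.7 FPKM and by Ccna2, the cyclin of S phase and G2, at 8.42, 8.76, 10.3 and 10.4 FPKM. Top2a exceeded Ccna2 in each wild type library. The lowest were the kinetochore motor gene Cenpe (2.2, 1.82, 1.26 and 1.77 FPKM) and the kinetochore gene Cenpf (2.13, 1.87, 2.23 and 2.19 FPKM), whose ranges overlapped. Among the G1/S regulators, the D-type cyclin Ccnd2 reached 31.3, 30.7, 40 and 39.6 FPKM and Ccnd1 6.56, 6.82, 8.3 and 7.01 FPKM. The E-type cyclins, which act with CDK2 at S phase entry, were the least abundant of this group: Ccne1 was at 2.06, 2.01, 1.43 and 2.22 FPKM and Ccne2 at 1.57, 1.33, 1.27 and 1.37 FPKM.

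The share of protein-coding RNA in the summed level varied between members. Transcripts of other annotated classes made up 74.3% of the wild type FPKM of Tyms, the thymidylate synthase gene, and 47.4% of that of Kif23, a motor of cytokinesis, against 0% for Mki67 and 5.02% for Pcna. How such short transcripts were quantified by the authors' software was not tested.

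Gins2, a subunit of the GINS complex of the replicative helicase, and Cdt1, which licenses origins, were listed at 0 in all 8 frontal cortex libraries. Their zeros belonged to a longer stretch: on chromosome 8, 64 consecutive genes that averaged 1 FPKM or more in the RIP and IgG table, from Usp10 (start 119910360) to Galnt2 (end 124345724, GRCm38), were all listed at 0 in the frontal cortex table. All 210 annotated genes in this span of 4.44 Mb were at 0 there, while the flanking genes Klhl36 and Pgbd5 had mean levels of 2.94 and 10 FPKM. The block includes Tubb3, the neuronal tubulin gene, at a mean of 295 FPKM in the RIP and IgG table. Elsewhere in the genome 484 of 14506 such genes (3.34%) were at 0 in the frontal cortex table, and the next longest run held 16 genes. In RIP A and B, Gins2 was at 2.72 and 0.566 FPKM, against 1.46 and 0.807 FPKM in IgG, and Cdt1 at 2.73 and 3.75 against 2.88 and 1.77 FPKM. The zeros of Gins2 and Cdt1 in frontal cortex are therefore not read as levels, and why the block is at 0 was not tested.

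**Figure D1:**
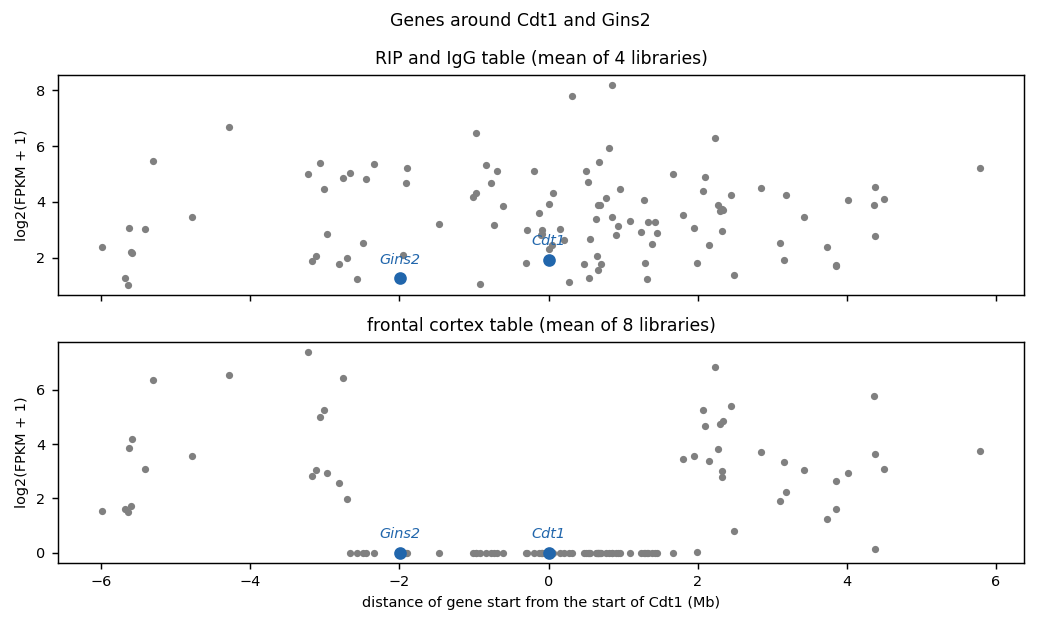
Mean log2(FPKM + 1) of genes around Cdt1 (y axis) against the distance of each gene's start from that of Cdt1 in Mb (x axis), in the RIP and IgG table (top, 4 libraries) and the frontal cortex table (bottom, 8 libraries); grey points are genes that reach 1 FPKM on average in the RIP and IgG table and blue points Gins2 and Cdt1. In the frontal cortex table the 64 consecutive genes of the block lie at 0, with expressed genes on both sides.

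The first comparison asked whether loss of Auts2 in the Emx1 lineage changed these genes in frontal cortex. None of the 37 members tested passed an adjusted p of 0.05 (limma, two-sided, 4 against 4), where 0.0235% of all 12786 genes did, and 3 members were under an unadjusted p of 0.05, where 7.91% of all genes were. Fold changes were negative for 27 of the 37 members, against 49.6% of all genes, with a median of -0.10 on the log2 scale, where the median of all genes was 0.001. By role, 16 of 22 mitosis, 7 of 10 replication and 4 of 5 G1/S genes were negative, with medians of -0.08, -0.09 and -0.11. Members share cells and libraries, so these counts are descriptions.

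Of the mitosis genes, Cenpf was the only member whose groups did not overlap (1.76% of all genes lay lower in all 4 cKO libraries). It measured 1.86, 1.04, 1.81 and 1.54 FPKM in cKO 1 to 4, all under the lowest wild type value of 1.87 FPKM, and its fold change on the log2 scale was -0.29 ± 0.12 (SE, adjusted p = 0.628 by limma). Anln encodes anillin, the scaffold of the cytokinetic ring. Its cKO values of 2.04, 1.28, 1.79 and 1.58 FPKM stood against wild type values of 3.06, 2.84, 1.94 and 1.76 FPKM (-0.34 ± 0.14, adjusted p = 0.628, limma). The groups overlapped, and wild type 1 and 2 were the high samples. The spindle pole kinase gene Aurka was at 3.29, 2.59, 2.01 and 1.86 FPKM in cKO 1 to 4 and in wild type at 3.49, 3.4, 3.34 and 2.53 FPKM (-0.30 ± 0.14, adjusted p = 0.635, limma).

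Of the replication genes, Mcm4 had the smallest p. It was at 5.83, 5.72, 5.25 and 5.16 FPKM in cKO 1 to 4 and at 7.97, 8.05, 5.82 and 5.85 FPKM in wild type 1 to 4 (-0.28 ± 0.12, adjusted p = 0.628, limma). Wild type 3 and 4 lay at the level of cKO 1, and wild type 1 and 2 were the high samples. Rrm2 was at 16.9, 15.1, 13.9 and 14.8 FPKM in cKO and in wild type at 15.8, 16.3, 16.5 and 16.8 FPKM (-0.10 ± 0.08, adjusted p = 0.682, limma). Mcm2 was at 5.85, 4.45, 4.27 and 4.38 FPKM against 5.57, 6.74, 4.52 and 4.78 FPKM (-0.15 ± 0.13, adjusted p = 0.708, limma). For both genes cKO 2, 3 and 4 lay under every wild type library and cKO 1 did not.

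Among the G1/S regulators, E2f1, which encodes the transcription factor that switches on S phase genes, was tightly grouped in wild type at 4.65, 4.69, 4.62 and 4.49 FPKM. In the cKO libraries it was at 4.58, 3.68, 3.79 and 3.97 FPKM (-0.17 ± 0.09, adjusted p = 0.641, limma), again with cKO 1 among the wild type values. Ccne1 went the other way, with 2.4, 2.5, 2.2 and 2.25 FPKM in cKO (0.19 ± 0.11, adjusted p = 0.641, limma). Ccnd1 was at 5.89, 7.37, 5.78 and 7.04 FPKM in cKO (-0.12 ± 0.10, adjusted p = 0.715, limma); cKO 1 and 3 lay under the lowest wild type value of 6.56 FPKM and the other 2 inside the wild type range.

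**Figure D2:**
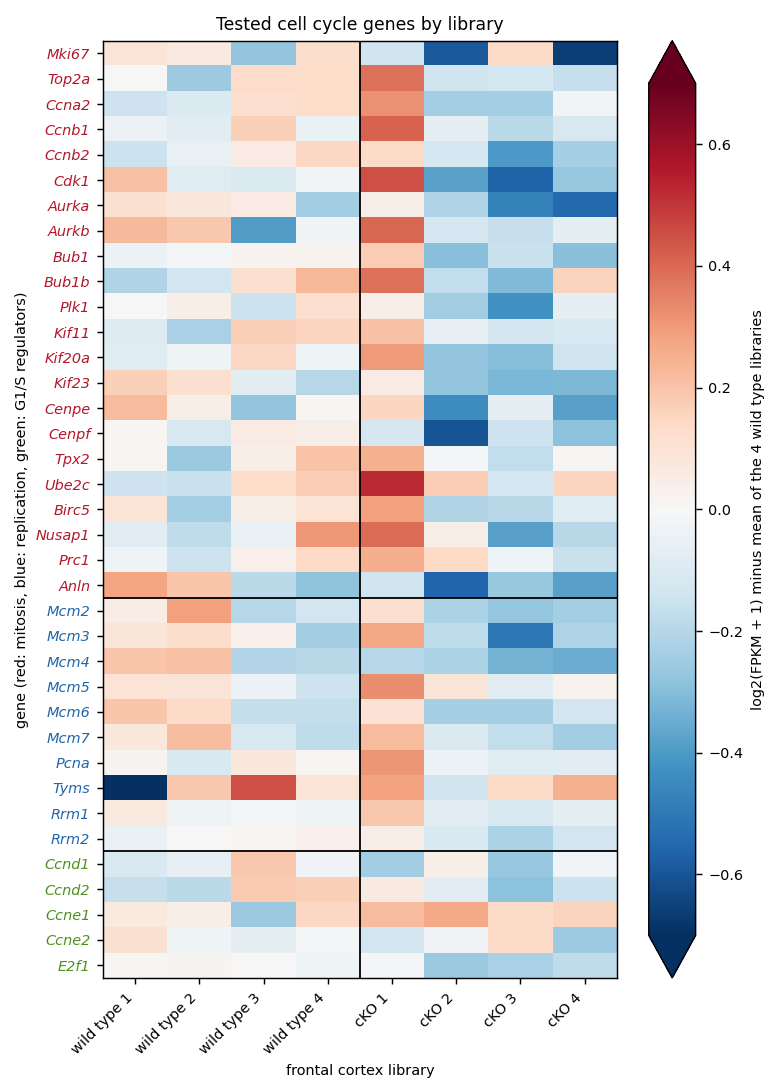
Each of the 37 tested members (rows) in each of the 8 frontal cortex libraries (columns), as log2(FPKM + 1) minus the mean of the 4 wild type libraries; red is higher, blue lower, and black lines separate the roles and the groups. The cKO 1 column is mainly red and the cKO 2, 3 and 4 columns mainly blue.

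The cKO libraries did not act as 1 group. The library cKO 1 was the highest of all 8 libraries for 20 of the 37 members, against 21.1% of all genes: 14 of 22 mitosis and 6 of 10 replication genes, but 0 of 5 G1/S regulators. For example, Cdk1, the mitotic kinase, was at 12.4 FPKM in cKO 1 and at 6.55, 5.65 and 7.16 FPKM in cKO 2 to 4, with the wild type libraries between at 10.3, 8.23, 8.14 and 8.67 FPKM. Conversely, cKO 2, 3 and 4 all lay under every wild type library for 10 of 37 members, where 3.36% of all genes did so: Cdk1, Bub1, Kif20a, Kif23 and Cenpf of mitosis, Mcm2, Mcm4, Rrm1 and Rrm2 of replication, and E2f1. Bub1 is a kinase of the spindle checkpoint and Kif20a and Kif23 are motors of cytokinesis. This pattern was read from the same libraries that it describes and has no test.

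The mean log2(FPKM + 1) of the 22 mitosis genes was 2.40 to 2.51 in the 4 wild type libraries, 2.68 in cKO 1, and 2.25, 2.23 and 2.27 in cKO 2 to 4. The 13 replication genes averaged 2.81 to 2.98 among wild type libraries, 3.03 in cKO 1 and 2.77, 2.72 and 2.79 in the others, with Gins2 and Cdt1 counted at 0 throughout. The 5 G1/S regulators averaged 2.65 to 2.75 among wild type libraries and 2.68, 2.68, 2.59 and 2.61 in cKO 1 to 4. Thus the mitosis and replication means of cKO 2, 3 and 4 lay under all wild type means and those of cKO 1 above them, and the G1/S means overlapped. The other 67 listed mitosis genes had the same order, with the highest mean (2.26) in cKO 1, wild type at 2.11 to 2.16, and cKO 2, 3 and 4 at 2.0 to 2.04. The further lists did not fully repeat it: the other 59 replication genes had 3.02 in cKO 1, but cKO 2 and wild type 3 were both at 2.84, and the other 29 G1/S genes had 3.19 in both cKO 1 and wild type 1.

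With cKO 1 left out, still none of the 37 members passed the adjusted threshold (smallest adjusted p = 0.573, limma), but 12 were under an unadjusted p of 0.05, where 8.45% of all genes were, and 33 of 37 fold changes were negative with a median of -0.17. Those 12 were Anln, Aurka, Bub1, Ccnb2, Cdk1, Cenpf, Kif20a and Kif23 of mitosis, Mcm3, Mcm4 and Rrm2 of replication, and E2f1. The fold change of Cdk1 moved from -0.19 ± 0.18 with all libraries to -0.40 ± 0.11 without cKO 1 (log2, SE). Without wild type 1, or without cKO 4, 0 members were under an unadjusted p of 0.05. The library cKO 1 was singled out by the values of these same members. The shift of the members without it follows in part from that choice, and the share of all genes is not an equal reference.

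Other cell type markers also differed in cKO 1. Interneuron and striatal markers, 10 genes, had a mean log2 level of 3.49 there, above the 2.96 to 3.28 of the other 7 libraries, 7 oligodendrocyte lineage markers had 2.55 against 2.78 to 2.99, and 12 radial glia markers 4.31 against 4.08 to 4.27. Summed radial glia markers were at 537 FPKM in cKO 1, inside the range of the others, 457 to 565 FPKM. Intermediate progenitor markers, 10 genes, had a mean log2 level of 2.45, 2.38 and 2.40 in cKO 2 to 4 and 2.64 in cKO 1. The means of cKO 2 to 4 lay under the 2.49 to 2.71 of the wild type libraries. Their summed FPKM did not keep this order, at 89.9, 87.5 and 84.7 in cKO 2 to 4 and 87.9 to 90.1 in wild type. Of 9 tested, 7 had negative fold changes (median -0.11) and 4 were under an unadjusted p of 0.05, with none passing the adjusted threshold (limma). The part of these cell types in the values of the members was not tested.

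**Figure D3:**
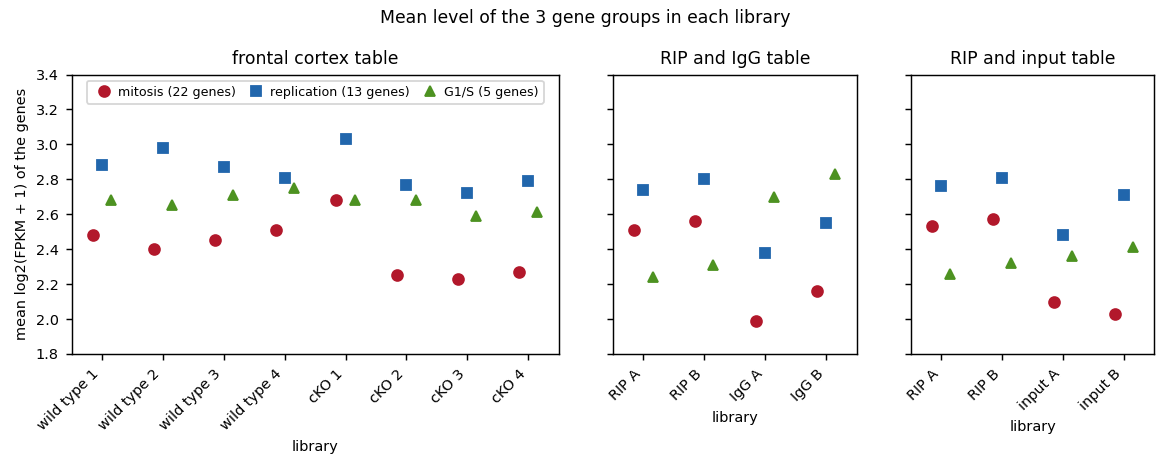
Mean log2(FPKM + 1) (y axis) of the mitosis (red circles), replication (blue squares) and G1/S genes (green triangles) in each library (x axis), in the 3 separately scaled tables. In frontal cortex the mitosis mean is 2.68 in cKO 1 and 2.23 to 2.27 in cKO 2, 3 and 4; in both pull-down tables the mitosis mean is higher in the RIP libraries than in the controls.

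The wild type libraries also differed among themselves. Wild type 1 and 2 were both above wild type 3 and 4 for 12 of 37 members, close to the 30.8% of all genes, and these 12 were all 6 MCM subunits, 5 mitosis genes (Aurka, Aurkb, Kif23, Cenpe and Anln) and E2f1; the MCM subset was picked after its values were seen. Mcm6, for example, was at 16.2 and 15.5 FPKM in wild type 1 and 2 and at 12.4 FPKM in both others. The reverse order held for 14 of 37 members (29.6% of all genes), 11 of them mitosis genes such as Ube2c, which encodes a ubiquitin conjugating enzyme of the anaphase promoting complex, at 6.1 and 6.04 against 7.6 and 7.85 FPKM. The mitosis means of the 2 pairs overlapped. Auts2 itself was at 87.7 and 92.2 FPKM in wild type 1 and 2 and at 55.9 and 60.2 FPKM in wild type 3 and 4. The labels name no batch, and a technical or litter difference between these animals was not tested.

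The pull-down comparisons asked which transcripts were recovered with AUTS2. Against IgG, 8 of 38 members tested were higher in the AUTS2 pull-down (13.7% of all 14570 genes were) and 1 was lower (9.69% of all genes were; limma, 2 against 2, adjusted p under 0.05). Against input, 7 of 37 were higher (19.3% of all 14458 genes) and 2 lower (16.6%). Against input the share of members called higher was thus close to that of all genes. The median log2 fold changes of mitosis, replication and G1/S genes were 0.51, 0.28 and -0.39 against IgG, where all genes had 0.021, and 0.70, 0.20 and -0.28 against input, where all genes had -0.016. A difference between roles was not tested, the G1/S medians rest on 5 and 4 genes, and without Ccnd2 the mean G1/S difference was -0.34 against IgG and 0.04 against input. Both comparisons use the same RIP libraries, so their shared calls are not independent.

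Mki67, Top2a, Cenpe and Ccnb2 were higher in both comparisons. Mki67 was at 43.2 and 45.6 FPKM in RIP A and B and at 24.6 and 26 FPKM in IgG A and B (log2 fold change 0.79 ± 0.12, SE, adjusted p = 0.00772, limma). In the table scaled with input it was at 44 and 46.3 FPKM against 21.4 and 20.2 FPKM (1.08 ± 0.12, adjusted p = 0.00204, limma). Its 10061-base messenger RNA carried nearly all of this signal, and the 2 RIP libraries were about equally high. With the trend with transcript length and GC content removed, the fold changes fell to 0.48 against IgG and 0.60 against input (adjusted p = 0.0401 and 0.0161, limma).

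Top2a was at 22.2 and 21.1 FPKM in RIP and 9.9 and 11.5 FPKM in IgG (0.96 ± 0.16, adjusted p = 0.01, limma), and at 22.6 and 21.4 against 9.6 and 12.9 FPKM in input (0.92 ± 0.18, adjusted p = 0.0125, limma). Cenpe was at 8.19 and 9.7 FPKM in RIP and 3.94 and 4.15 FPKM in IgG (0.97 ± 0.21, adjusted p = 0.0219, limma). Against input it had the largest fold change of the members, 8.34 and 9.85 against 2.67 and 2.21 FPKM (1.55 ± 0.22, adjusted p = 0.00433, limma). For these 3 genes no control library came within the RIP values.

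Ccnb2 was less abundant, at 3.29 and 4.64 FPKM in RIP and 1.27 and 1.47 FPKM in IgG (1.06 ± 0.28, adjusted p = 0.043, limma), and at 3.35 and 4.71 against 1.48 and 0.939 FPKM in input (1.19 ± 0.30, adjusted p = 0.0273, limma). Nusap1, which encodes a spindle microtubule protein, was called against IgG only, with 8.24 and 6.52 against 3.42 and 2.01 FPKM (1.19 ± 0.28, adjusted p = 0.0292, limma). In RIP, 65.7% of its FPKM came from transcripts of other than protein-coding class, mainly 1 of 312 bases, and it was not called on protein-coding transcripts alone; it also overlaps Oip5 on the other strand, and the strand setting of the quantification is unknown here. The mitotic kinase gene Plk1 was called against input only, at 6.29 and 2.6 against 1.03 and 0.654 FPKM (1.48 ± 0.41, adjusted p = 0.0353, limma), and its RIP and IgG ranges overlapped.

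Not all mitosis genes shared this direction. Of 21 tested, 19 were positive against IgG (51.3% of all genes) and 17 against input (49.2%). The exceptions against input were Ccnb1 (-1.06 ± 0.33, adjusted p = 0.0525, limma), Ube2c (-0.83 ± 0.33), Ccna2 (-0.55 ± 0.29) and Birc5 (-0.32 ± 0.35), none of which passed. The paralogues Ccnb1 and Ccnb2 had values on opposite sides: Ccnb1 was at 2.27 and 1.73 FPKM in RIP and 7.14 and 3.77 FPKM in input. Only 19.8% of Ccnb1 FPKM was of other than protein-coding class in wild type frontal cortex, against 54% in RIP, 65.9% in input and 78.5% in IgG. Its top transcript was a protein-coding one in RIP (36.3% of FPKM) and a retained intron in input (31.4%) and IgG (76.5%).

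Of the replication genes, 3 MCM subunits were called higher against IgG. Mcm6 was at 13.8 and 13.7 FPKM in RIP and at 7.45 and 7.79 FPKM in IgG (0.77 ± 0.17, adjusted p = 0.0232, limma). Mcm2 was at 9.85 and 12.7 against 5.72 and 6.42 FPKM (0.79 ± 0.21, adjusted p = 0.0404, limma), and Mcm3 at 6.73 and 11 against 3.02 and 4.27 FPKM (1.06 ± 0.29, adjusted p = 0.0453, limma). All 3 genes had both RIP libraries above both IgG libraries. After removal of the trend with transcript length and GC content, Mcm2 (0.53) and Mcm3 (0.91) no longer passed, and on protein-coding transcripts alone Mcm2 did not.

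Against input the called MCM subunits were others. Mcm7 was at 31.2 and 29.3 FPKM in RIP and 17.6 and 18 FPKM in input (0.73 ± 0.13, adjusted p = 0.00815, limma), and Mcm5 at 3.71 and 5.32 against 1.3 and 1.1 FPKM (1.31 ± 0.28, adjusted p = 0.0167, limma). Mcm7 overlaps Cops6 and Ap4m1 on the other strand and hosts 3 microRNA genes, and 41.5% of its RIP FPKM was of other than protein-coding class; it was not called on protein-coding transcripts alone. Mcm2, Mcm3 and Mcm6 were positive against input (0.52, 0.83 and 0.37) without passing, and Mcm4 was near 0 against IgG (-0.03 ± 0.21) and at 0.20 ± 0.23 against input. A difference between the subunits was not tested.

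Pcna was the only replication member called lower in either comparison, and a difference from the helicase genes was not tested. It was at 9.36 and 9.12 FPKM in RIP and at 13.5 and 15.3 FPKM in input (-0.58 ± 0.17, adjusted p = 0.0388, limma), but its RIP values of 9.2 and 8.99 FPKM lay inside the IgG range of 8.18 to 13.2 FPKM. With the trio as a block Pcna no longer passed against input, while Mcm3 and, in the lower direction, Ccnb1 did, giving 8 higher and 2 lower; the calls against IgG were the same 9 genes. With the length and GC trend removed the fold change of Pcna was -0.13. Mcm5 kept a fold change of 0.98 in that fit (adjusted p = 0.0517, limma), and Plk1, still positive, had an adjusted p of 0.0731 (limma).

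Among the G1/S regulators, Ccnd2 was called lower in both comparisons, as no other member was, at 24 and 28.6 FPKM in RIP against 53.5 and 60.5 FPKM in IgG (-1.09 ± 0.14, adjusted p = 0.00509, limma). Against input it was at 24.4 and 29.1 against 40.4 and 43.2 FPKM (-0.63 ± 0.13, adjusted p = 0.0162, limma). Without the variance trend and robust step it did not pass against input (adjusted p = 0.055, limma). With 1 library left out, the fold change of Ccnd2 ran from -1.21 to -0.97 against IgG and from -0.75 to -0.51 against input. Its messenger RNA of 6330 bases is long, and its fold changes were -1.32 and -0.95 with the length and GC trend removed. It overlaps 9330179D12Rik and Gm43126 on the other strand. E2f1 was at 1.58 and 2.42 FPKM in RIP and 3.79 and 5.26 FPKM in IgG (-0.88 ± 0.29, adjusted p = 0.0747, limma), and passed only after that trend was removed. Ccne1 had positive values in both comparisons (0.10 ± 0.37 and 0.49 ± 0.34) and did not pass.

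**Figure D4:**
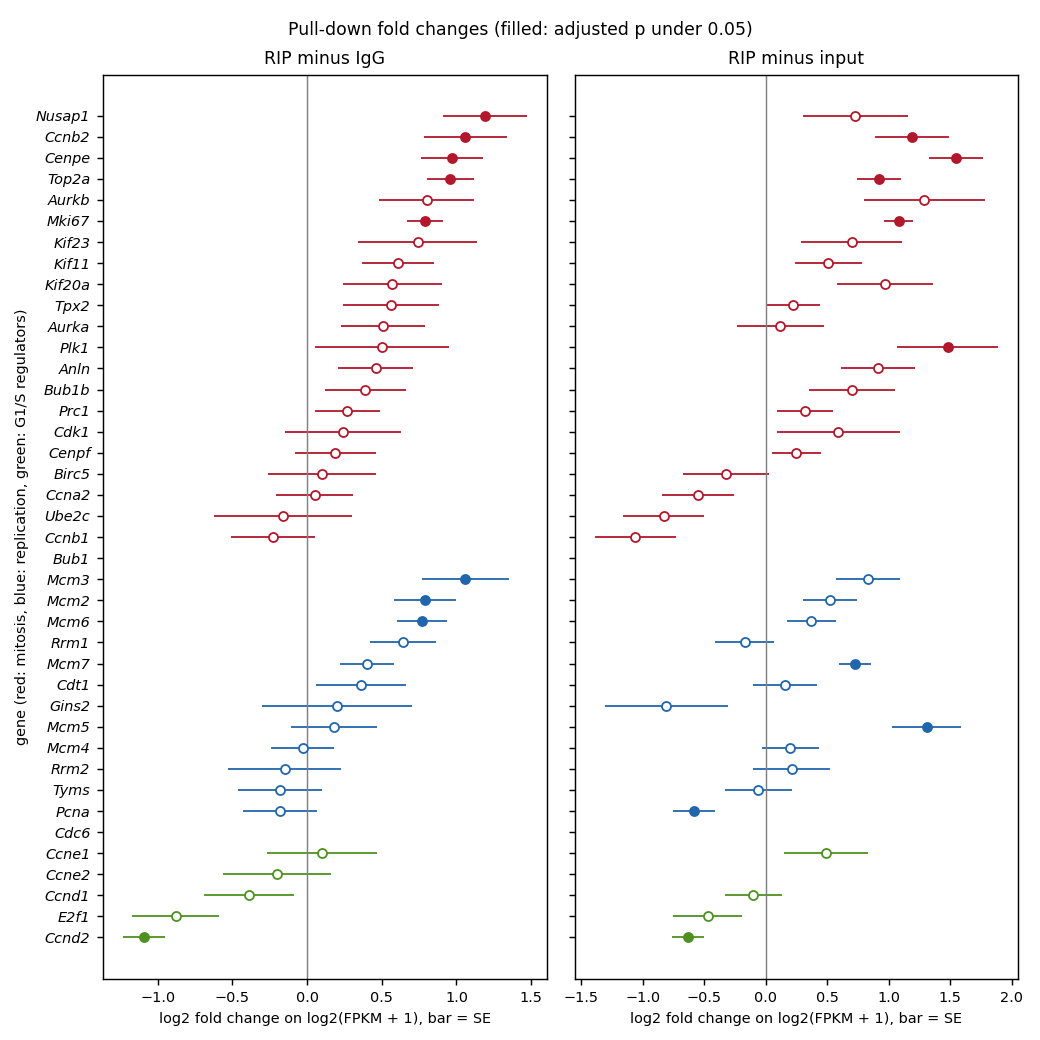
Log2 fold change (x axis, on log2(FPKM + 1), bars are SE) of each tested member (y axis, ordered within role by the IgG comparison) for RIP minus IgG (left) and RIP minus input (right); filled points have an adjusted p under 0.05. Most mitosis genes (red) lie right of 0, and Ccnd2 and E2f1 (green) left of 0. Of the replication genes (blue), the MCM genes lie at or right of 0. Pcna and Tyms lie left of 0 in both panels, Rrm2 on the left panel only, and Gins2 and Rrm1 on the right panel only.

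**Figure D5:**
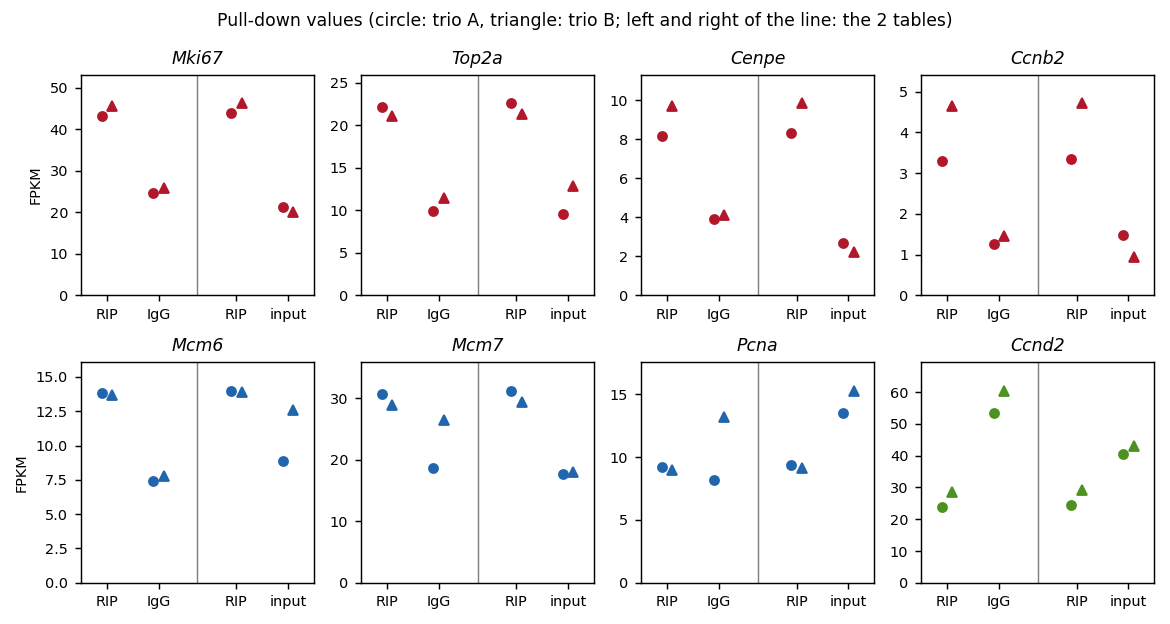
FPKM (y axis, from 0) of 8 members in the AUTS2 pull-down and its controls; circles are trio A, triangles trio B, and the grey line separates the 2 separately scaled tables, each of which holds the RIP libraries. Mki67, Top2a, Cenpe and Ccnb2 are higher in RIP than in either control, Ccnd2 lower, and Pcna lower than input but within the IgG range. Mcm6 and Mcm7 are also higher, but Mcm6 was called against IgG only and Mcm7 against input only.

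These calls rested on 2 libraries a side. Leaving out 1 library left 0 to 3 members called against IgG and 1 to 6 against input. Mki67 remained called in 4 of 4 such fits against input and in 1 of 4 against IgG (the fit without IgG B), and without IgG A no gene of the whole table was called. Across members, fold changes and transcript length had a Spearman correlation of 0.19 (n = 38) against IgG and 0.24 (n = 37) against input, where all genes had 0.21 and 0.30; genes are not independent replicates.

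The mean log2 levels of radial glia and intermediate progenitor markers overlapped between RIP and IgG. Summed intermediate progenitor markers were lower in RIP, at 52.2 and 58.4 FPKM against 67.7 and 74.2 FPKM in IgG. The mean log2 level of 12 radial glia markers was 4.52 and 4.60 in RIP and 4.49 and 4.59 in IgG, and that of 10 intermediate progenitor markers 2.33 and 2.39 against 2.38 and 2.54. Oligodendrocyte lineage markers, 7 genes, were at 3.83 and 3.70 in RIP and at 3.41 and 3.38 in IgG, and interneuron and striatal markers, 10 genes, at 4.16 and 4.13 against 3.92 and 3.89. Against input, the mean log2 levels of radial glia markers overlapped (4.54 and 4.61 in RIP, 4.63 and 4.58 in input). Their summed FPKM was lower in RIP (497 and 511 against 585 and 635 FPKM). Mean log2 levels of intermediate progenitor markers were lower in RIP (2.35 and 2.41 against 2.44 and 2.58). Oligodendrocyte lineage markers (3.85 and 3.72 against 3.36 and 3.14) were higher in RIP than in input, as were interneuron and striatal markers (summed 291 and 280 against 165 and 163 FPKM). The part of these genes in the result was not tested.

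Of the other listed cell cycle genes, none passed in the cKO comparison at an adjusted p of 0.05 (limma): 1 of 62 mitosis genes, 5 of 55 replication genes and 2 of 26 G1/S regulators and brakes were under an unadjusted p of 0.05. Against IgG, where 13.7% of all genes were higher and 9.69% lower, 6 of 59 further mitosis genes were higher and 1 lower, 7 of 51 replication genes higher and none lower, and 1 of 26 G1/S genes higher and 2 lower. Against input, where the shares of all genes were 19.3% and 16.6%, the counts were 9 higher and 1 lower of 57, 9 and 2 of 52, and 2 and 3 of 28. Median log2 fold changes of the mitosis, replication and G1/S lists were 0.46, 0.34 and 0.13 against IgG and 0.50, 0.24 and -0.09 against input, so the further G1/S genes did not share the negative median of the G1/S members against IgG.

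The named ones had both RIP libraries on one side of both controls. Cit, citron kinase of cytokinesis, was at 21.4 and 21.6 FPKM in RIP and 8.67 and 7.18 FPKM in IgG (1.34 ± 0.17, adjusted p = 0.0049, limma), and Ncapd2, a condensin subunit, had 0.98 ± 0.13 against IgG and 1.26 ± 0.14 against input. Arhgap11a was lower against IgG (-1.05 ± 0.20), and the kinetochore gene Spc25 lower against input, at 1.38 and 2.1 against 10.2 and 9.56 FPKM (-2.0 ± 0.24).

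Among replication genes, Dnmt1, the maintenance DNA methyltransferase that acts behind the fork, was at 88.2 and 88.7 FPKM in RIP and 39.2 and 33 FPKM in IgG (1.27 ± 0.12, adjusted p = 0.00299, limma), and had 1.67 ± 0.11 against input. The DNA ligase gene Lig1 had 1.21 ± 0.22 against IgG and 1.49 ± 0.17 against input. The clamp loader gene Rfc1 had 1.09 ± 0.19 against IgG and 1.43 ± 0.21 against input. Rfc2, another clamp loader gene, was called against input only (1.11 ± 0.16). Of the G1/S genes, Myc was higher in both (0.69 ± 0.17 and 1.46 ± 0.18) and Btg1, an antiproliferative gene, lower in both (-0.80 ± 0.18 and -0.98 ± 0.18). Cdk6, the kinase partner of D-type cyclins, was lower against IgG (-1.20 ± 0.30) and Tfdp2, an E2F partner, lower against input (-1.34 ± 0.22).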

How the data were processed

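Frontal cortex RNA (4 wild type, 4 cKO) and cortex RNA from AUTS2 RIP, IgG and input (2 each) were sequenced. The authors deposited FPKM per transcript in 3 tables; STAR 2.5, SAMtools, Cuffdiff 2.2.1 and builds GRCm38.p4 and mm10 are named, per the submitters' processing notes, without roles. Libraries were TruSeq (frontal cortex) and SMARTer Stranded (RIP), per the labels' protocols. Tables were scaled separately, so tests stayed within a table. The 1 cKO column whose name differs from its label in the letters before the number was matched by its library number.

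Of 128508 transcript rows, 127975 matched GENCODE M21 and were summed per symbol; matched rows held at least 99.475% of each library's FPKM. Tests used log2(FPKM + 1) of genes averaging 1 FPKM or more, in limma 3.58.1 (R 4.3.3; mean-variance trend, robust, two-sided) and Benjamini-Hochberg adjustment over all genes tested. Fold changes are on the log2(FPKM + 1) scale and understate those of low genes. In simulated data the frontal cortex fit recovered 83% of 1.5-fold and 99% of 2-fold changes (12786 genes, 6.14% of calls false). The IgG fit (14570 genes) recovered 14% of 2-fold and 39% of 4-fold changes and the input fit (14458 genes) 10% and 53%. The simulation planted many changed genes and drew noise independently for each gene. In the real frontal cortex fit 3 of 12786 genes passed, and genes shifted together in single libraries such as cKO 1. The simulated shares can therefore overstate what was detectable there. Alternatives were other pseudocounts (0.1, 5), filters, scalings, protein-coding transcripts only, a replicate block, removal of the length and GC trend (pull-downs) and leaving out each library.

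The members and lists were chosen with earlier results of these data known. Per-library values are given for up to 3 members per role with the smallest p in the cKO fit, up to 4 called members per role and direction in each pull-down fit, the 2 highest and lowest per role in wild type, and up to 3 called genes of each other list; Ccnb2 and Plk1 were added as the fifth called of their role and Cdk1, Ube2c and Ccnb1 after their values were seen. The design text says that each RIP replicate was split into RIP, IgG and input, so trio numbers pair the samples; deviations of the same trio correlated at 0.00879 (IgG) and 0.012 (input) over all genes. The replicates are called biological in the design text. Upstream promoter sequences are from RefSeq (GRCm38.p6).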

Additional observations from a re-analysis of the deposited data

Results flagged for a closer look

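In 11 of 78 groups of 4 frontal cortex libraries (each member and Auts2 in each genotype, the 2 members at 0 left out), 1 library stood apart from the other 3 by a gap, relative to the group's range, above Dixon's critical value. Chance gives about 1 in 20 such groups, and the members share libraries. In 7 of the 11 the library was cKO 1, each time the highest: Top2a at 20.2 FPKM, Ccnb1 at 7.33, Aurkb at 5.78, Kif23 at 5.28, Mcm2 at 5.85, Pcna at 49.8 and Rrm1 at 18.9 FPKM. In the wild type group, Ccnb1 was high in wild type 3 (6.02 FPKM), Aurka low in wild type 4 (2.53 FPKM), Birc5 low in wild type 2 (4.14 FPKM) and Cdc6 high in wild type 2 (0.93 FPKM).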

How the results depend on the processing

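In the cKO comparison 0 members passed under each of the 17 alternatives, with smallest adjusted p values from 0.343 to 0.965 (limma). The replicate block also gave 0 there. The labels give no pairing of the frontal cortex animals. Deviations of same-numbered libraries correlated at 0.176, 0.0173, -0.0394 and 0.0659. This cannot settle the pairing, because the pull-down trios, split from shared pools, correlated at only 0.00879 (IgG) and 0.012 (input). Against IgG, 9 members passed; testing without a filter on low values gave 5, leaving out 1 library gave 0 to 3, and the replicate block gave 9. Against input, 9 passed, leaving out 1 library gave 1 to 6, and the replicate block gave 10; the block changed calls of members only as given for Pcna, Mcm3 and Ccnb1. Without Ccnd2, the mean log2 level of the G1/S genes differed by -0.34 (RIP minus IgG) and 0.04 (RIP minus input). The other alternatives kept the counts within 1.5 times, and no fold change reversed among those recomputed, which were those of Auts2 and of the members chosen by p in each fit; those of the other genes named were not recomputed. The cause of these shifts was not tested. With 2 libraries a side, and depth unknown, changes of members near 1 FPKM were not detectable with confidence; short transcripts, overlapping genes and pseudogenes (Ccnb1, Ccnb2, Pcna, Tyms) can shift FPKM.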
